A study of Homo sapiens with 18 samples.

Results

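The transcripts of 37 genes that carry out DNA replication or mark S phase were followed in OVCAR3 cells exposed to antibodies. The genes were chosen by symbol, and all 37 were found among the 55765 gene symbols shared by the count tables of 2 experiments. OVCAR3 is an established cell line from a human high-grade serous ovarian carcinoma, and RNA from whole cultures gave 18 libraries, 3 for each of 6 groups. All cells grew in RPMI medium with 2% fetal bovine serum, and antibodies were given at 0.5 µg/ml for 24 h by the labels, although legends of the study's supplementary data give a shorter time. In the first experiment the groups were natural human IgA of no chosen specificity, natural human IgG, and untreated cells. In the second experiment they were IgA specific for the neurotrophin BDNF, IgA specific for the tetraspanin TSPAN7, and untreated cells. Both specific antibodies were purified from the medium of immortalised clones of tumour-derived B cells. The second experiment held no IgA of irrelevant specificity, so against untreated cells target, clone and exposure to any IgA cannot be told apart. Both specific groups were given IgA at the same dose. Each specific IgA differed from the other in clone as well as in target, so between them target and clone cannot be told apart. The experiments were analysed separately, since their counts were made apart.

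Before S phase, the origin recognition complex, CDC6 and CDT1 load the MCM2 to MCM7 helicase onto origins, and CDC45 with the GINS complex then turns it into an active helicase. Polymerase alpha with primase starts each new strand, the RFC complex loads the PCNA clamp for polymerases delta and epsilon, and FEN1 and LIG1 join the Okazaki fragments of the lagging strand. Ribonucleotide reductase and thymidylate synthase supply the nucleotides, and CAF-1 and UHRF1 restore nucleosomes and DNA methylation behind the fork. Many of these genes are transcribed around the G1 to S transition under E2F transcription factors, which is why their transcripts are widely read as a mark of proliferating tumour cells.

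Of the 37 genes, 33 matched a RefSeq promoter window of 300 bases, 250 before the start and 50 from it (build GRCh38.p14); MCM4, MCM5, GINS4 and CCNE2 did not. The E2F-type words TTTCCCGC, TTTCGCGC, TTTGCCGC and TTTGGCGC, read on both strands, were present in 19 of these 33 windows (57.6%), against 3.33% of 27305 windows of the same length. The stretches printed end at the base before the start and have those words in capitals. UHRF1 (chr19:4909381-4909500, plus strand), PCNA (chr20:5126623-5126742, minus strand) and TYMS (chr18:657533-657652, plus strand) are shown because the results that follow turn on them.
UHRF1: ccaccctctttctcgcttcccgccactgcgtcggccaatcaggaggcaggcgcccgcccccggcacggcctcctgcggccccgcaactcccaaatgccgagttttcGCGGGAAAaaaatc
PCNA: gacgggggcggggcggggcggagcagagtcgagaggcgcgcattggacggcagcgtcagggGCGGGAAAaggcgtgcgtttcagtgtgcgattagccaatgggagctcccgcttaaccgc
TYMS: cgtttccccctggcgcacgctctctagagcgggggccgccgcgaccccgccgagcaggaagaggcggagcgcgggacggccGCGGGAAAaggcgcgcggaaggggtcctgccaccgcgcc
The other stretches shown are the promoter with the most matches, MCM6 (chr2:135876444-135876605, minus strand), and that of the transcription factor E2F1 itself (chr20:33686386-33686505, minus strand). The words overlap: each MCM6 run of 12 capitals, TTTGGCGCGAAA, holds TTTGGCGC on one strand and TTTCGCGC on the other, so the 4 matches of MCM6 lie at 2 places.
MCM6: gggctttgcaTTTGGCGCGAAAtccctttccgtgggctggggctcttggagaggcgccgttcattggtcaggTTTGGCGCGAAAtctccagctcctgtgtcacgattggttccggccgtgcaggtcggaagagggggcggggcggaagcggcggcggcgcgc
E2F1: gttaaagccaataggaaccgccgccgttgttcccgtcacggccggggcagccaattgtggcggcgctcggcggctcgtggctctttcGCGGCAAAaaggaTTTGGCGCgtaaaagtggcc
Of the 17 genes whose levels differed between the specific antibodies, 13 had a window and 7 of them held a match. Of the genes that did not pass that test, 20 had a window and 12 held a match. The CCAAT word was present in 60.6% of the members' windows and in 35.7% of all windows, and GGGCGG in 72.7% and 44.6%. A match describes the letters only and is not a measured binding site.

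Levels are given as normalised counts, made by dividing by each library's effective size and multiplying by the experiment's mean effective size. A gene was called when its Benjamini-Hochberg adjusted p, over all genes tested in edgeR's quasi-likelihood test, was under 0.05. Totals per library were 27920733 to 42371474 counts (first experiment) and 39254350 to 47381836 (second experiment), and the lowest count of any member in any library was 104. All 10 markers of serous carcinoma epithelium had over 10 normalised counts in every library, with summed levels of 168525 to 267562. The lists of B, T, myeloid and endothelial cell markers summed to at most 72.9 normalised counts, and the IGHA1 and IGHG1 genes were at 0 in all libraries. The 5 fibroblast markers summed to 2063 to 4875. Replicates varied less in the second experiment, with a common dispersion of 0.00303 against 0.0307. The spread of the first experiment was uneven between groups. Over all expressed genes, a chi-square per degree of freedom between libraries of the same group was 67.0, 184 and 232 with IgA. The highest values were those of IgA replicate 3 with each of the others. The range was 12.5 to 23.0 in untreated cells and 6.60 to 25.0 with IgG. All groups of an experiment share the fit's dispersion. The mitochondrial share of counts was 19.1% in IgA replicate 3 of the first experiment and 5.75% to 10.2% in the other 17. Nothing in the labels says that replicates were separate cultures. A figure legend of the study gives n = 3 experiments for the first experiment, without saying which libraries belong together. P-values measure the spread between these libraries, which may be technical.

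The members were expressed at very different levels. In CPM per kilobase of merged exons, the untreated cells of the first experiment had most TYMS (50.5 ± 5.96, SD, n = 3), PCNA (47.8 ± 6.90), RRM2 (38.2 ± 4.25) and FEN1 (31.2 ± 4.35). TYMS and PCNA, the neighbours at the top, did not differ beyond their SD. The lowest levels were those of GINS3 (1.58) and POLA1 (1.60). The same 4 genes led in the untreated cells of the second experiment, where PCNA had 55.9 and TYMS 54.2. On GRCh37 the 37 genes lie on 19 chromosomes, among them UHRF1 at chr19:4903092-4962165, PCNA at chr20:5095599-5107272, FEN1 at chr11:61560383-61564710, RRM2 at chr2:10260825-10351851 and TYMS at chr18:657653-673578. Whether counting used strand was not stated. Exons were taken from a later GENCODE release than the one the study's methods name for counting, so lengths and shared bases may differ from those counted. For 8 genes over 10% of the exon bases are shared with another gene, from 10.6% in RFC5 to 37.1% in CCNE2 (INTS8) and 47.9% in TYMS (ENOSF1 and TYMSOS), and 7 genes, RRM2, PCNA and FEN1 among them, have named pseudogenes, so these levels are less certain.

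The clearest difference was between the 2 specific antibodies. Mean levels of all 37 genes were greater under TSPAN7 IgA than under BDNF IgA, and 17 passed the test in that direction, with 0 passing in the other. The log2 differences ranged from 0.06 in LIG1 to 0.35 in ORC1 with a median of 0.21, against a median of -0.00 over all 18732 genes tested. Of all genes tested, 3.42% were called higher and 4.50% lower in this comparison. Each of the 8 roles, from origin licensing to chromatin assembly, held at least 1 gene called. In 15 of the 37 genes every TSPAN7 IgA library lay above every BDNF IgA library, which held for 11.5% of all genes. Fewer cells in S phase and less of these transcripts per cell cannot be told apart in RNA from whole cultures.

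**Figure D1:**
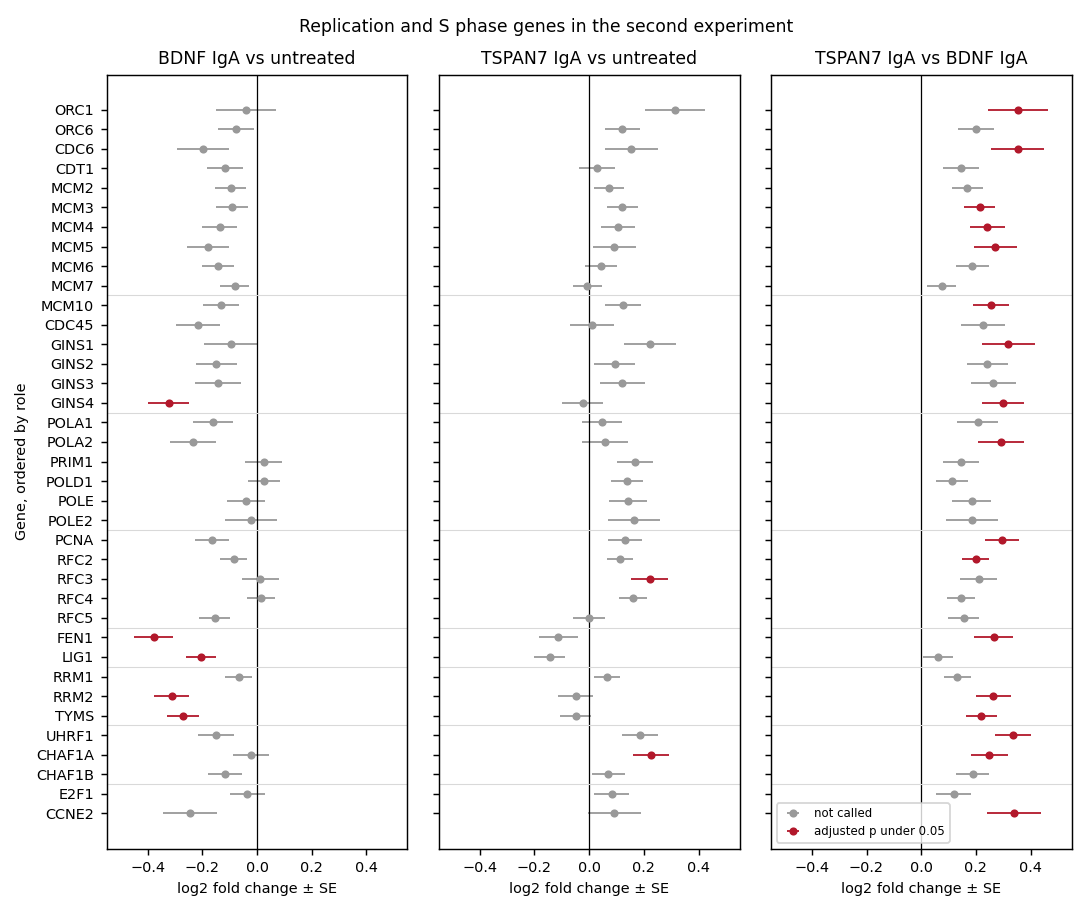
Log2 fold changes (points) with standard errors (bars) of the 37 genes in the 3 comparisons of the second experiment, ordered by role; red points passed an edgeR adjusted p of 0.05. Against untreated cells most genes lay below 0 with BDNF IgA and above 0 with TSPAN7 IgA, and all 37 lay above 0 when the antibodies were compared with each other.

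UHRF1, which recruits maintenance DNA methylation to newly made DNA, had the clearest difference. Its normalised counts were 1627, 1954 and 1550.1 with BDNF IgA, 2160.0, 2133 and 2183 with TSPAN7 IgA and 1969, 1870.2 and 1853 in untreated cells. The antibody groups did not overlap (TSPAN7 IgA against BDNF IgA, log2 fold change 0.34 ± 0.07 SE, adjusted p = 0.00315 by edgeR). The TSPAN7 IgA libraries also lay above all untreated libraries, but UHRF1 was not called against untreated cells (0.19, adjusted p = 0.0875 by edgeR). PCNA, the sliding clamp that holds polymerases on DNA, had 2907, 3348 and 2675 normalised counts with BDNF IgA and 3676, 3723 and 3565 with TSPAN7 IgA, against 3461, 3349 and 3205 in untreated cells. Again all 3 TSPAN7 IgA libraries were the highest. The log2 fold change over BDNF IgA was 0.30 ± 0.06 (SE, adjusted p = 0.00467 by edgeR), and PCNA was not called against untreated cells. UHRF1 and PCNA were the only members called in every alternative fit of TSPAN7 IgA against BDNF IgA. Over the fits that each left out 1 library, UHRF1 was at 0.27 to 0.44 and PCNA at 0.23 to 0.39.

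The other 15 calls depended on single libraries. BDNF IgA replicate 2 stood apart from its group, with the highest level of the 3 in 35 of the 37 genes. Averaged over the 37 genes, its log2 deviation from the experiment's mean was 0.05, against -0.17 and -0.24 in BDNF IgA replicates 1 and 3, 0.08 to 0.13 in the TSPAN7 IgA libraries and -0.01 to 0.04 in the untreated libraries. Its total and its mitochondrial share (9.16%) lay within the range of the others. Over all expressed genes, however, a chi-square per degree of freedom between its counts and those of replicates 1 and 3 was 8.27 and 12.2. Replicates 1 and 3 gave 5.18 against each other, and pairs of TSPAN7 IgA libraries 3.91 to 8.82. Without BDNF IgA replicate 2, 33 members were called higher with TSPAN7 IgA, while the number over all genes rose from 641 to 1554. Without BDNF IgA replicate 1, BDNF IgA replicate 3 or TSPAN7 IgA replicate 2, only UHRF1 and PCNA (2 genes) were called, and without TSPAN7 IgA replicate 1 or 3 the numbers were 7 and 9. Over all genes the numbers called higher in those fits were 245, 196, 196, 518 and 342, in the same order. The median log2 difference over the members stayed between 0.16 and 0.30 in all 6 of these fits. With only the 6 libraries compared, 7 members and 427 of all genes were called higher.

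**Figure D2:**
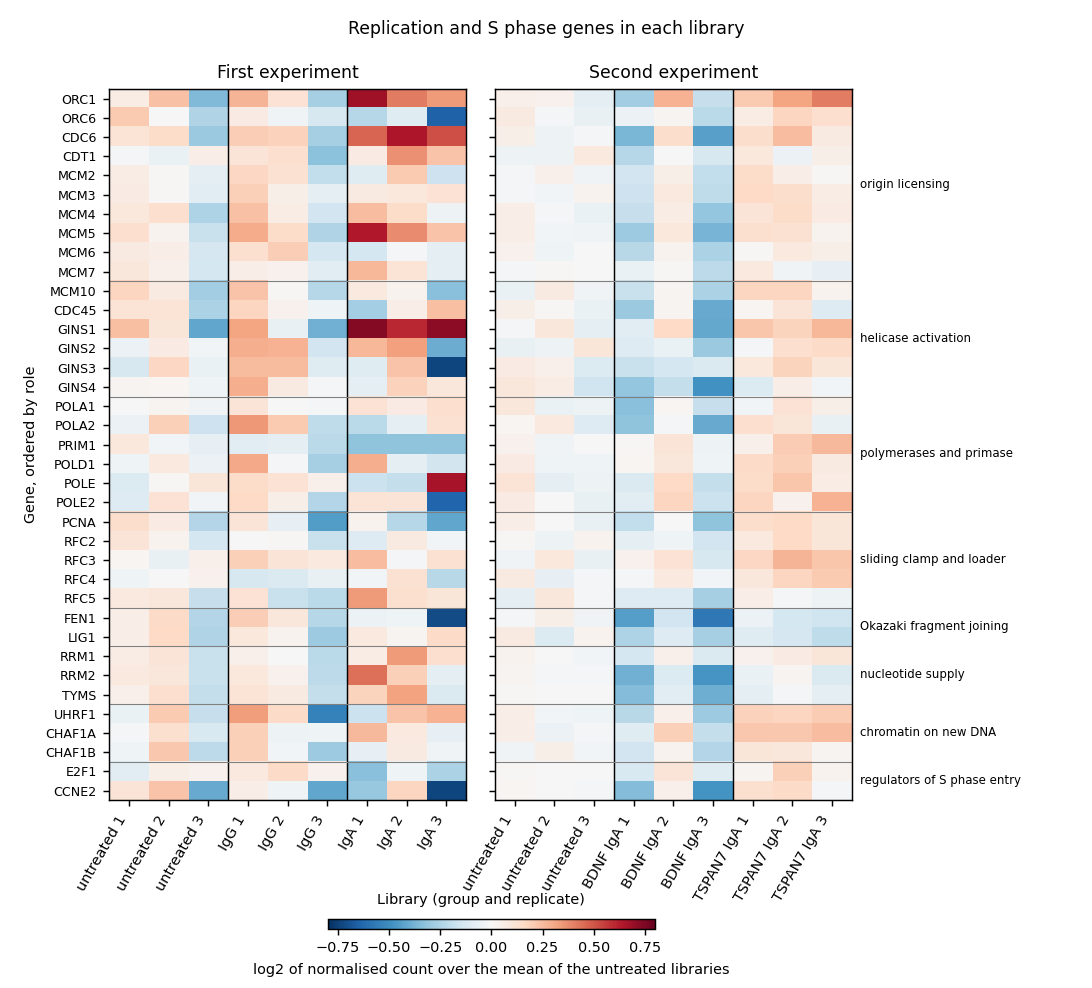
Each of the 37 genes (rows, by role) in each library (columns), as the log2 of its normalised count over the mean of the untreated libraries of the same experiment, blue for lower and red for higher. BDNF IgA libraries 1 and 3 were blue in most rows while library 2, the highest of its group in 35 of 37 genes, was not, and in the first experiment GINS1 and CDC6 were red in all 3 IgA libraries.

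Among the genes of origin licensing, 5 of 10 were called higher with TSPAN7 IgA than with BDNF IgA. CDC6, the loader of the MCM helicase, had 1462, 2079 and 1398 normalised counts with BDNF IgA and 2080.1, 2238 and 1986 with TSPAN7 IgA. The second BDNF IgA library lay within the TSPAN7 IgA range, and the other BDNF IgA libraries below it (log2 fold change 0.35 ± 0.10 SE, adjusted p = 0.0275 by edgeR). By DESeq2 with all libraries CDC6 was not called (0.35, adjusted p = 0.148). ORC1, the largest subunit of the origin recognition complex, had 406, 597 and 434 and 571, 613 and 654 respectively. It had the same overlap (log2 fold change 0.35 ± 0.11 SE, adjusted p = 0.0480 by edgeR), and its difference was 0.25 to 0.54 when single libraries were left out. Of the helicase subunits, MCM4 had 7660.2, 9049.6 and 7029 normalised counts with BDNF IgA and 9359, 9619.9 and 9085 with TSPAN7 IgA. These groups did not overlap, although the gap above the second BDNF IgA library was small (log2 fold change 0.24 ± 0.06 SE, adjusted p = 0.0217 by edgeR). MCM5 had 2307, 2986 and 2185 and 3086, 3064 and 2874, with overlap (log2 fold change 0.27 ± 0.08 SE, adjusted p = 0.0343 by edgeR), and MCM3 had 4315, 5118 and 4213 and 5416, 5352 and 5053, also with overlap (log2 fold change 0.21 ± 0.06 SE, adjusted p = 0.0265 by edgeR). The remaining licensing genes, ORC6, CDT1, MCM2, MCM6 and MCM7, had differences of 0.08 to 0.20 that did not pass the test.

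Of the 6 genes that turn the loaded helicase on, 3 were called. MCM10, which helps CDC45 join the helicase, had 1488, 1704 and 1408 normalised counts with BDNF IgA and 1891, 1891 and 1711 with TSPAN7 IgA (log2 fold change 0.26 ± 0.07 SE, adjusted p = 0.0204 by edgeR). GINS1 had 807, 958 and 645 and 1002, 971 and 1033 (log2 fold change 0.32 ± 0.10 SE, adjusted p = 0.0436 by edgeR). GINS4 had 1149, 1249.6 and 1018 and 1323, 1479 and 1404 (log2 fold change 0.30 ± 0.08 SE, adjusted p = 0.0183 by edgeR). None of these 3 genes overlapped between the antibody groups, and each had its highest BDNF IgA value in the second library. The other GINS subunits were alike in size but did not pass, GINS2 at 0.24 and GINS3 at 0.26, and CDC45 was at 0.22.

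At the fork, 1 of the 6 polymerase and primase genes was called. POLA2, the accessory subunit of polymerase alpha, had 896, 1113 and 847 normalised counts with BDNF IgA and 1227, 1195 and 1074 with TSPAN7 IgA (log2 fold change 0.29 ± 0.08 SE, adjusted p = 0.0358 by edgeR). The second BDNF IgA library lay within the TSPAN7 IgA range, and 21.3% of the exon bases are shared with other genes. The catalytic subunits POLA1, POLD1 and POLE were at 0.21, 0.11 and 0.18, not called. All 5 genes of the clamp and its loader had TSPAN7 IgA libraries above every BDNF IgA library, and RFC2 was called beside PCNA. RFC2 had 2291, 2351 and 2162 and 2542, 2691 and 2577 normalised counts (log2 fold change 0.20 ± 0.05 SE, adjusted p = 0.0156 by edgeR). RFC3, RFC4 and RFC5 differed by 0.21, 0.14 and 0.16 without passing.

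Of the Okazaki fragment genes, the flap endonuclease FEN1 was called, with 2657, 3241 and 2428 normalised counts with BDNF IgA and 3497, 3275 and 3237 with TSPAN7 IgA (log2 fold change 0.27 ± 0.07 SE, adjusted p = 0.0247 by edgeR), while the ligase LIG1 was at 0.06 ± 0.06. In nucleotide supply, RRM2, the S phase subunit of ribonucleotide reductase, had 11566, 14002 and 10852 and 14523, 15316 and 13892 (log2 fold change 0.26 ± 0.06 SE, adjusted p = 0.0144 by edgeR). TYMS, thymidylate synthase, had 4408, 5246 and 4262 and 5331, 5567 and 5314 (log2 fold change 0.22 ± 0.06 SE, adjusted p = 0.0224 by edgeR). RRM1, the large reductase subunit, did not pass (0.13). In each of FEN1, RRM2 and TYMS the second BDNF IgA library was nearest to the TSPAN7 IgA libraries, and only TYMS was without overlap. Of the chromatin genes, CHAF1A, the large subunit of CAF-1, had 2913, 3549 and 2726 with BDNF IgA and 3615, 3604 and 3696 with TSPAN7 IgA (log2 fold change 0.25 ± 0.07 SE, adjusted p = 0.0256 by edgeR), and CHAF1B did not pass (0.19). CCNE2, a cyclin that drives S phase entry, had 489, 639 and 447 and 679, 691 and 619 (log2 fold change 0.34 ± 0.10 SE, adjusted p = 0.0391 by edgeR). CHAF1A was without overlap and CCNE2 was not. E2F1 was at 0.12 and did not pass.

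**Figure D3:**
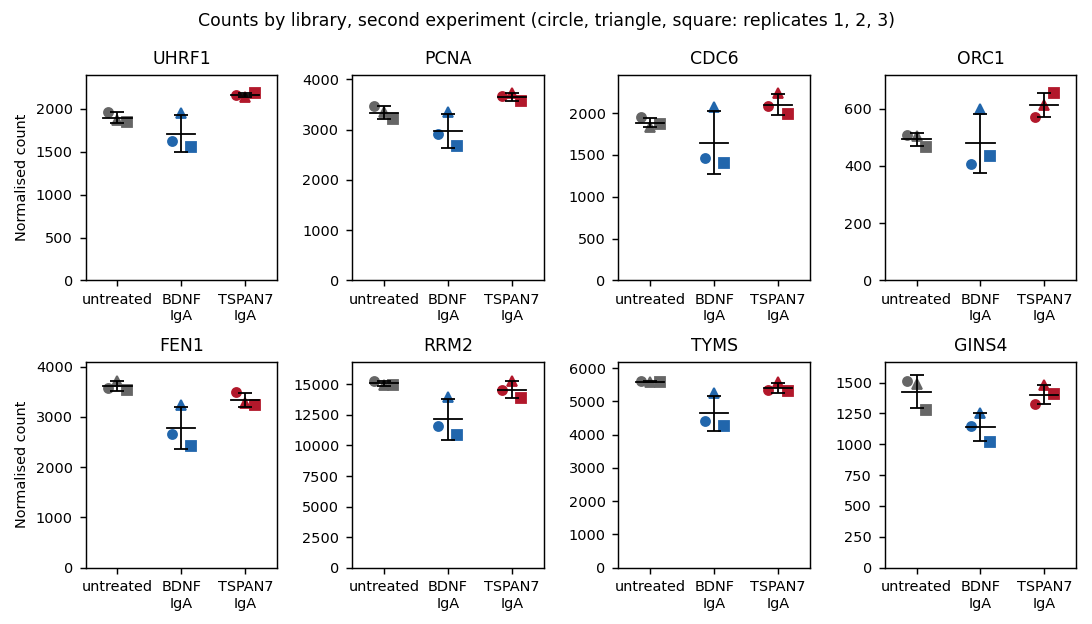
Normalised counts of 8 members in each library of the second experiment, with the group mean (line) and SD (bars); circles, triangles and squares are replicates 1, 2 and 3. The triangle of the BDNF IgA group was the highest of that group in all 8 panels, and TYMS varied from 5574 to 5623 in the untreated libraries.

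Against untreated cells, most mean levels lay lower with BDNF IgA and higher with TSPAN7 IgA. Both comparisons share the untreated libraries and are given side by side. With BDNF IgA, 33 of 37 genes had lower mean levels, with a median log2 fold change of -0.13 (all genes, 0.00). Here 5 were called lower and 0 higher, while 3.18% of all genes were called lower and 4.49% higher. In 6 genes every BDNF IgA library lay below every untreated library, which held for 12.0% of all genes. With TSPAN7 IgA, 30 of 37 genes had higher mean levels, with a median of 0.09 (all genes, -0.00). Only 2 were called higher and 0 lower, while 4.46% of all genes were called higher and 4.08% lower. The TSPAN7 IgA libraries lay above all untreated libraries in 16 genes and below them in 2 (FEN1 and TYMS), which held for 14.4% and 14.0% of all genes.

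The 5 genes lower with BDNF IgA act on the lagging strand, in nucleotide supply and in the GINS complex. FEN1 fell from 3567, 3723 and 3536 normalised counts in untreated cells to 2657, 3241 and 2428, 0.769 of the untreated level (log2 fold change -0.38 ± 0.07 SE, adjusted p = 0.00187 by edgeR). RRM2 fell from 15292, 14978 and 14971 to 11566, 14002 and 10852 (log2 fold change -0.31 ± 0.06 SE, adjusted p = 0.00389 by edgeR). TYMS fell from 5623, 5584 and 5574 to 4408, 5246 and 4262 (log2 fold change -0.27 ± 0.06 SE, adjusted p = 0.00524 by edgeR). In these 3 genes all BDNF IgA libraries, the second included, lay below all untreated libraries, and the calls were kept in every alternative fit. Over the fits without 1 library FEN1 was at -0.51 to -0.29, RRM2 at -0.43 to -0.24 and TYMS at -0.37 to -0.22. GINS4 fell from 1516, 1486 and 1274 to 1149, 1249.6 and 1018 (log2 fold change -0.32 ± 0.08 SE, adjusted p = 0.0102 by edgeR). The groups did not overlap, but the call was lost without BDNF IgA replicate 3 (-0.25, adjusted p = 0.0685), untreated replicate 1 (-0.28, adjusted p = 0.0743) or untreated replicate 2 (-0.29, adjusted p = 0.0648). LIG1, DNA ligase 1, fell from 3954, 3491 and 3829 to 3161, 3497 and 3119, with 1 BDNF IgA library above the lowest untreated one (log2 fold change -0.21 ± 0.06 SE, adjusted p = 0.0231 by edgeR). Its call was lost without BDNF IgA replicate 1 (-0.18, adjusted p = 0.110), BDNF IgA replicate 3 (-0.18, adjusted p = 0.104), untreated replicate 1 (-0.17, adjusted p = 0.140) or untreated replicate 3 (-0.19, adjusted p = 0.0874).

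All 10 licensing genes also had lower mean levels with BDNF IgA, from -0.20 in CDC6 to -0.04 in ORC1, and 0 passed the test. The 4 genes with higher mean levels were PRIM1 and POLD1 of the polymerases and RFC3 and RFC4 of the clamp loader, at 0.01 to 0.03. Leaving out the second BDNF IgA library raised the number called lower from 5 to 21, while leaving out BDNF IgA replicate 3 or untreated replicate 1 lowered it to 3. Over all genes the number called lower moved too, from 596 to 1293, 305 and 377 in those fits.

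**Figure D4:**
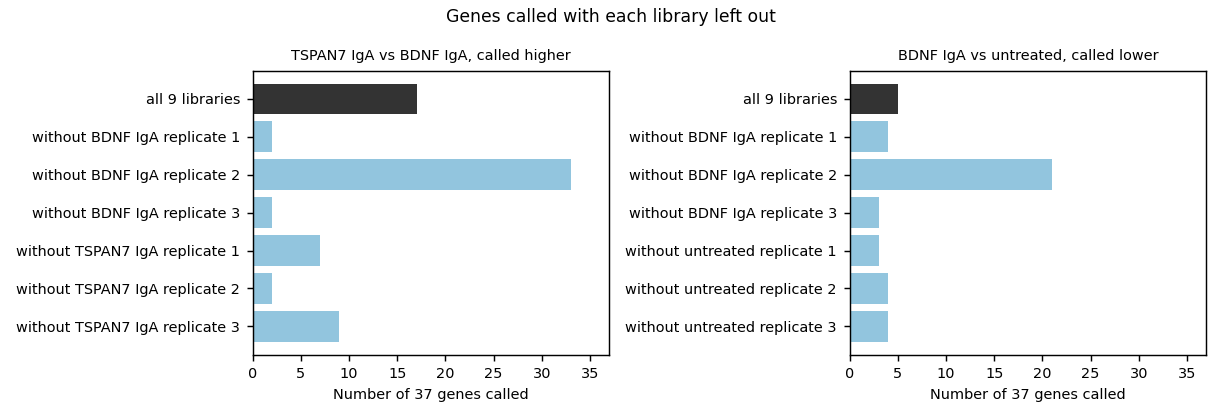
Number of the 37 genes called with all 9 libraries (dark bars) and with each library of the groups compared left out (light bars), for TSPAN7 IgA against BDNF IgA and for BDNF IgA against untreated cells. Without BDNF IgA replicate 2 the numbers were 33 and 21, and with all libraries they were 17 and 5. Over all genes, not drawn, they were 1554 and 1293 without that library and 641 and 596 with all libraries.

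The genes called higher with TSPAN7 IgA than in untreated cells were CHAF1A and RFC3. CHAF1A rose from 3227, 3009 and 3093 normalised counts to 3615, 3604 and 3696 (log2 fold change 0.23 ± 0.07 SE, adjusted p = 0.0392 by edgeR). RFC3, a subunit of the clamp loader, rose from 1067, 1150.1 and 1043 to 1219, 1310.1 and 1269.9 (log2 fold change 0.22 ± 0.07 SE, adjusted p = 0.0437 by edgeR). The groups did not overlap in either gene. Both lay close to the threshold: the CHAF1A call was lost whichever of the 6 libraries was left out (log2 fold change 0.20 to 0.26), and the RFC3 call whenever any but untreated replicate 2 was (0.19 to 0.27). ORC1 had the largest mean difference, from 507, 506 and 467 to 571, 613 and 654, without overlap but also without passing (log2 fold change 0.31 ± 0.11 SE, adjusted p = 0.0786 by edgeR). FEN1 (-0.11) and LIG1 (-0.14) had lower means than in untreated cells with TSPAN7 IgA too, not called.

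Other genes of the same processes were described from lists chosen with earlier results of these data known. Of 42 further replication genes, BDNF IgA against untreated cells gave 7 called lower and 0 higher (median -0.10), and TSPAN7 IgA against BDNF IgA gave 10 called higher and 0 lower (median 0.13). With TSPAN7 IgA against untreated cells 2 were higher and 2 lower (median 0.03). Of all genes, 3.18% were lower and 4.49% higher in the first of these comparisons. The shares higher and lower were 3.42% and 4.50% in the second and 4.46% and 4.08% in the third. DBF4, the activating subunit of the CDC7 kinase, fell to 1488 ± 118 against 1856 ± 30.0 normalised counts (SD, n = 3; log2 fold change -0.32 ± 0.06 SE, adjusted p = 0.00214 by edgeR). CDC7 itself fell to 1118 ± 59.9 against 1334 ± 14.8 (log2 fold change -0.26 ± 0.06 SE, adjusted p = 0.00762 by edgeR), a call lost without BDNF IgA replicate 3 (highest adjusted p 0.0530). ASF1B, a histone chaperone, was higher with TSPAN7 IgA than with BDNF IgA (1706 ± 83.7 against 1297 ± 83.4; log2 fold change 0.40 ± 0.06 SE, adjusted p = 0.000407 by edgeR). Without BDNF IgA replicate 2 these numbers rose to 18 lower and 21 higher, and without BDNF IgA replicate 1 or 3 or TSPAN7 IgA replicate 2 the number higher fell to 2. It was 4 without TSPAN7 IgA replicate 1 or 3, and the number lower with BDNF IgA was 4 without BDNF IgA replicate 3.

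The histone genes of the histone clusters, most of which are transcribed in S phase, were called in larger numbers. Of 68 tested, BDNF IgA against untreated cells gave 37 called lower and 0 higher, with a median log2 fold change of -0.29, and TSPAN7 IgA against BDNF IgA gave 33 called higher and 0 lower (median 0.20). With TSPAN7 IgA against untreated cells 6 were higher and 7 lower (median -0.08), with 3 to 6 higher and 2 to 9 lower when any 1 library was left out. Of all genes, 3.18% were lower and 4.49% higher in the first of these comparisons. The shares higher and lower were 3.42% and 4.50% in the second and 4.46% and 4.08% in the third. HIST1H4L was at 478 ± 103 against 970.3 ± 29.9 normalised counts with BDNF IgA against untreated cells (log2 fold change -1.02 ± 0.10 SE, adjusted p = 1.06e-06 by edgeR), and HIST1H1A at 545 ± 92.2 against 1058 ± 158 (log2 fold change -0.95 ± 0.11 SE, adjusted p = 9.58e-06 by edgeR). HIST1H2BB was at 1129 ± 62.0 against 649 ± 118 with TSPAN7 IgA against BDNF IgA (log2 fold change 0.80 ± 0.09 SE, adjusted p = 3.36e-05 by edgeR). Each of these 3 calls was kept in all 13 alternative fits. The second BDNF IgA library was the highest of its group here as well, at a mean log2 deviation of -0.04 over the 68 genes, against -0.26 and -0.22 in replicates 1 and 3. Without it 43 were lower than in untreated cells and 46 higher with TSPAN7 IgA. The number higher with TSPAN7 IgA was 21 without BDNF IgA replicate 3 or TSPAN7 IgA replicate 1. Histone genes are near copies of each other, so reads may be split between them and single values are uncertain.

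Regulators of the G1 to S transition also differed between the specific antibodies. Of 30 tested, TSPAN7 IgA against untreated cells gave 7 called higher and 0 lower, BDNF IgA against untreated cells 1 higher and 4 lower, and TSPAN7 IgA against BDNF IgA 9 higher and 0 lower. The shares of all genes called higher and lower were 4.46% and 4.08% in the first of these, 4.49% and 3.18% in the second, and 3.42% and 4.50% in the third. The 1 gene higher with BDNF IgA (3.33%) was thus near the share of all genes. CCND1, cyclin D1, rose from 17046, 18271 and 15894 normalised counts in untreated cells to 22694, 22871 and 21894 with TSPAN7 IgA (log2 fold change 0.40 ± 0.06 SE, adjusted p = 7.00e-05 by edgeR). Its kinase partner CDK6 rose from 7141, 7496 and 6979 to 8746, 9370.1 and 8994 (log2 fold change 0.33 ± 0.06 SE, adjusted p = 0.000533 by edgeR). These 2 calls were kept in all 13 alternative fits, and the number called higher was 2 or 3 whenever any of the 6 libraries was left out. CDKN2B, an inhibitor of cyclin-dependent kinases, was called higher with TSPAN7 IgA too (log2 fold change 0.21 ± 0.07 SE, adjusted p = 0.0462 by edgeR). It was also the 1 regulator higher with BDNF IgA than in untreated cells (0.29 ± 0.07 SE, adjusted p = 0.00733 by edgeR). CDKN2C, the p18 inhibitor of CDK4 and CDK6, fell from 1294, 1250.2 and 1318 in untreated cells to 807, 984 and 855 with BDNF IgA (log2 fold change -0.55 ± 0.07 SE, adjusted p = 1.68e-05 by edgeR). E2F7, an atypical E2F repressor, fell from 1559, 1513 and 1396 to 1157, 1330.5 and 1044 (log2 fold change -0.34 ± 0.07 SE, adjusted p = 0.00522 by edgeR), and both of these calls were kept in all 13 fits too. Without BDNF IgA replicate 1, BDNF IgA replicate 3, untreated replicate 1 or untreated replicate 2, the number lower with BDNF IgA was 2. The number higher with BDNF IgA was 0 when BDNF IgA replicate 1 or untreated replicate 1 was omitted and 3 when BDNF IgA replicate 2 or untreated replicate 3 was. The number higher with TSPAN7 IgA than with BDNF IgA was 13 without BDNF IgA replicate 2, 3 without BDNF IgA replicate 3 or TSPAN7 IgA replicate 2, 4 without BDNF IgA replicate 1 and 5 without TSPAN7 IgA replicate 1 or 3. CDKN1A, which encodes p21, was at 130.3, 128 and 148 with BDNF IgA, 127, 129.6 and 128 with TSPAN7 IgA and 128, 128 and 125 in untreated cells and was not called.

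In the first experiment, few of the replication genes changed with non-specific IgA while many other genes did. Against IgG, 2 of 37 genes were called higher with IgA and 0 lower, while 12.6% of all genes were called higher and 11.6% lower. Against untreated cells, 2 were called higher and 1 lower, while 12.9% and 12.1% of all genes were. The median log2 fold change over the 37 genes was 0.03 against IgG and 0.08 against untreated cells. IgG against untreated cells gave 0 calls among the members by edgeR and by DESeq2, with member fold changes of -0.12 to 0.15. Over all genes 0% were called higher and 0% lower. An unadjusted edgeR p under 0.05 was reached by 0 members and by only 89 of all 18012 genes tested. The 0 among the members is therefore not particular to them. The median SE was 0.14 in this experiment and 0.07 in the second, so differences of the size seen between the specific antibodies were not detectable for most members.

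GINS1 had the largest difference. Its normalised counts were 862, 787 and 849.9 with IgA, 645, 497 and 397 with IgG and 613, 555 and 388 in untreated cells. All IgA libraries lay above all others. The log2 fold change was 0.70 ± 0.19 (SE) against IgG (edgeR adjusted p = 0.0191) and 0.69 ± 0.19 against untreated cells (adjusted p = 0.0202). The call against IgG was lost without IgA replicate 1 (0.67, adjusted p = 0.0540), IgG replicate 2 (0.67, adjusted p = 0.0713) or IgG replicate 3 (0.54, adjusted p = 0.0882). The call against untreated cells was lost without IgA replicate 1 (0.66, adjusted p = 0.0559) or untreated replicate 3 (0.51, adjusted p = 0.0914). Of the other GINS subunits, GINS2 was at -0.05, GINS3 at -0.28 and GINS4 at -0.05 against IgG, none of them called.

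CDC6 was the other gene called higher with IgA. It had 1358, 1537 and 1404 normalised counts with IgA, 1125, 1116 and 817 with IgG and 1059, 1087 and 798 in untreated cells, and the IgA libraries again lay above all others. The log2 fold change was 0.49 ± 0.15 (SE) against IgG (edgeR adjusted p = 0.0304) and 0.55 ± 0.15 against untreated cells (adjusted p = 0.0180). Its call against IgG was lost without IgA replicate 2 (0.43, adjusted p = 0.0718), IgG replicate 2 (0.56, adjusted p = 0.0544) or IgG replicate 3 (0.35, adjusted p = 0.133), and that against untreated cells without untreated replicate 3 (0.42, adjusted p = 0.0855). PRIM1, the catalytic subunit of primase, fell from 1079.8, 1007 and 975 in untreated cells to 815, 815 and 818 with IgA, and IgG cells had 964, 969.7 and 877. The IgA libraries were nearly equal and the lowest of all (log2 fold change -0.32 ± 0.10 SE, adjusted p = 0.0381 by edgeR). That call was lost whenever any library but IgA replicate 3 was left out, with log2 fold changes of -0.35 to -0.28, and 19.1% of the exon bases of PRIM1 are shared with other genes. PRIM1 against IgG was not called (-0.20). MCM5 lay just past the threshold with IgA against untreated cells (log2 fold change 0.43, adjusted p = 0.0509 by edgeR). It was called higher in 5 of the 13 alternative fits, DESeq2 among them (adjusted p = 0.0372). Against IgG MCM5 was at 0.34 (adjusted p = 0.111 by edgeR).

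Replicate 3 had the lowest mean level of the members in each group of this experiment, at mean log2 deviations of -0.16 in untreated cells, -0.07 with IgA and -0.20 with IgG. It was the lowest of its group for 29, 19 and 35 of the 37 genes respectively. Single genes went against this: POLE had 1946, 1921 and 3464 normalised counts with IgA, and its fold change against IgG went from 0.06 to -0.28, adjusted p = 0.0466, without IgA replicate 3, which is also the library with a mitochondrial share of 19.1%. The scaling mattered too. With library totals alone the median of all genes moved from -0.01 to -0.25 against IgG and from -0.01 to -0.22 against untreated cells, and the members' medians moved with it to -0.21 and -0.13. The calls of GINS1 and CDC6 were then lost in both comparisons (0.46, adjusted p = 0.115 and 0.26, adjusted p = 0.303 against IgG). Over all genes the split of calls went from 2265 higher and 2095 lower to 873 and 3631 against IgG, and from 2316 and 2187 to 1001 and 3296 against untreated cells.

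**Figure D5:**
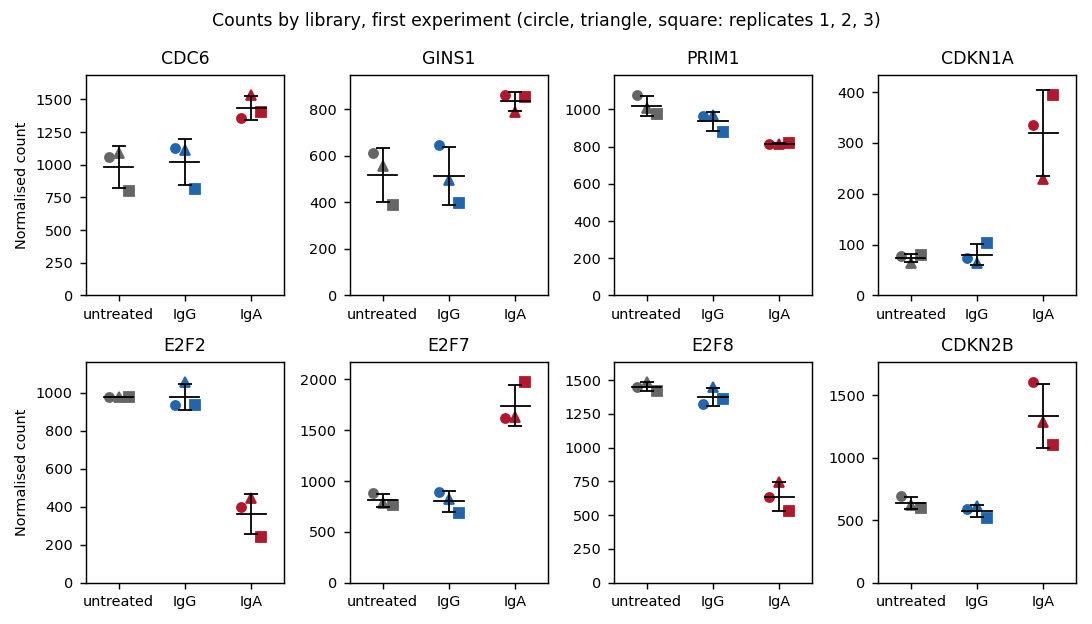
Normalised counts in each library of the first experiment for 3 members (CDC6, GINS1, PRIM1) and 5 regulators of the G1 to S transition, with group mean (line) and SD (bars); circles, triangles and squares are replicates 1, 2 and 3. The IgA libraries did not overlap with the untreated or IgG libraries in any of the 8 panels.

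The regulators that act upstream of these genes included some of the largest changes with non-specific IgA among the lists examined. Of 30 tested, 6 were called higher (20%) and 4 lower (13.3%) with IgA than with IgG, against 12.6% and 11.6% of all genes, so the share lower was near that of all genes. Against untreated cells 7 were higher (23.3%) and 5 lower (16.7%), where 12.9% and 12.1% of all genes were. CDKN1A, the p21 inhibitor of cyclin-dependent kinases, had 335, 229 and 395 normalised counts with IgA and 73.7, 63.7 and 103 with IgG, 3.98-fold higher (log2 fold change 1.99 ± 0.26 SE, adjusted p = 0.000209 by edgeR). CDKN2B, the p15 inhibitor, had 1606, 1289 and 1099 and 592, 615 and 519 (log2 fold change 1.21 ± 0.15 SE, adjusted p = 0.000124 by edgeR). E2F2, an activating E2F, fell to 397, 446 and 243 with IgA from 938, 1057 and 938 with IgG (log2 fold change -1.42 ± 0.18 SE, adjusted p = 0.000165 by edgeR). The 2 atypical repressor E2F genes went opposite ways. E2F7 had 1624, 1627 and 1975 with IgA and 892, 824 and 691 with IgG (log2 fold change 1.12 ± 0.13 SE, adjusted p = 9.34e-05 by edgeR), and E2F8 had 636, 744 and 531 and 1319.7, 1451 and 1360.4 (log2 fold change -1.11 ± 0.12 SE, adjusted p = 7.99e-05 by edgeR). In none of these 5 genes did the IgA and IgG libraries overlap, and each call was kept in all 13 alternative fits, library totals included. CCND1 (0.84, edgeR adjusted p = 0.000200), CDK6 (0.44, 0.0130) and CDK2 (0.49, 0.0331) were also called higher with IgA than with IgG. They were called higher than in untreated cells as well. CCNE1 (-0.67, 0.0257) and SKP2 (-0.58, 0.0278) were called lower with IgA than with IgG. The numbers called over the list were less stable, with 4 higher and 2 lower against IgG without IgG replicate 2, 2 lower without IgA replicate 1 or IgG replicate 1, and 9 higher without IgA replicate 3. Against untreated cells the number lower was 2 when IgA replicate 1, untreated replicate 1 or untreated replicate 2 was omitted. E2F1 itself was at -0.29 ± 0.11 against IgG and did not pass.

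Among the other replication genes, 1 of 42 was called higher (2.38%) and 4 lower (9.52%) with IgA than with IgG, shares below those of all genes (12.6% and 11.6%). The number higher was 3 without IgA replicate 2 and 5 without IgA replicate 3. ORC4 (-0.54, edgeR adjusted p = 0.00699) and CDC7 (-0.52, 0.0106) were lower in all 13 alternative fits too, and the number lower ranged from 2 without IgG replicate 1 or 2 to 6 without IgA replicate 2 or 3, with 9 lower for library totals alone. Of 67 histone genes, 14 were higher (20.9%) and 8 lower (11.9%) than with IgG, the latter near the 11.6% of all genes. Against untreated cells 15 were higher (22.4%) and 12 lower (17.9%), where 12.9% and 12.1% of all genes were. Leaving out IgG replicate 2 gave 8 higher and 5 lower against IgG, and IgG replicate 3 gave 9 and 4. Against untreated cells omitting an untreated library left 7 higher and 8 lower (replicate 1), 13 and 6 (replicate 2) or 8 and 6 (replicate 3), and omitting IgA replicate 1 left 9 and 9.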

How the data were processed

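RNA of OVCAR3 cells was sequenced in 18 libraries of 6 groups of 3. The labels and methods describe total RNA, the Ovation Human FFPE RNA-Seq kit and paired-end reads of 75 bases aligned with STAR to GRCh37. The deposited values are counts per gene, not normalised by the authors. The methods name featureCounts as the counter and the submitters' processing notes name HTSeq 0.6.1 and cutadapt 1.8.1. The strand setting is not given in the sources used here. In the table of the second experiment, 2055 of 57820 rows were exact copies of others and were dropped, which left 55765 symbols in both tables.

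The members and all gene lists were chosen with earlier results of these data known. Members were found by symbol, and all 37 passed edgeR's filterByExpr. Each experiment was fitted on its own with all 9 libraries, by edgeR 4.0.16 (R 4.3.3), with TMM scaling and the quasi-likelihood F test (two-sided). P-values were adjusted by Benjamini-Hochberg over 18012 or 18732 genes, with a threshold of 0.05. The SE is the absolute log2 fold change over the square root of F. Deviations are of log2 CPM with a prior count of 2. Per-library values were to be given for the 5 called members with the largest absolute log2 fold change in a comparison and for any member whose call turned on 1 library, and at most 5 called genes per list and comparison were to be named. E2F1 and the other members not called, ORC1 against untreated cells, POLE, and CDKN1A in the second experiment are given outside that rule, chosen after their values were seen. The same holds for CCND1, CDK6, CDK2, CCNE1 and SKP2 in the first experiment.

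The 13 alternatives of each result were DESeq2 1.42.0, RLE scaling, library totals only, no low-count filter, the replicate number as a block, removal of mitochondrial and ribosomal RNA genes, only the 6 libraries compared, and leaving out each of 6 libraries. The fits were tested on simulated data. Groups of libraries within an experiment were compared and experiments were not set against each other.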

Additional observations from a re-analysis of the deposited data

Results flagged for a closer look

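These results were singled out because the direct test between both antibody groups of an experiment, which is the difference between their responses relative to the same untreated libraries, passed an edgeR adjusted p of 0.05. Between TSPAN7 IgA and BDNF IgA this held for 17 of 37 replication genes, each greater with TSPAN7 IgA. In origin licensing the log2 differences were 0.35 for ORC1, 0.35 for CDC6, 0.21 for MCM3, 0.24 for MCM4 and 0.27 for MCM5. In helicase activation they were 0.26 for MCM10, 0.32 for GINS1 and 0.30 for GINS4. At the fork they were 0.29 for POLA2, 0.30 for PCNA, 0.20 for RFC2 and 0.27 for FEN1. In nucleotide supply they were 0.26 for RRM2 and 0.22 for TYMS, and in chromatin 0.34 for UHRF1 and 0.25 for CHAF1A. The cyclin CCNE2 differed by 0.34. Of the 17, UHRF1 and PCNA passed in each of the 13 alternative fits. CDC6 did not pass by DESeq2 (adjusted p = 0.148).

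Between non-specific IgA and IgG the same test passed for GINS1, at a log2 difference of 0.70, and for CDC6, at 0.49, and neither passed with library totals alone. Groups of 3 libraries were not tested for single outlying values.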

How the results depend on the processing

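Of 377 alternative values of the 29 called member values, 261 kept direction and call, 116 lost the call and 0 changed sign, and 5 of the 29 kept the call in every alternative. The numbers of members called, per comparison, moved as follows. Higher with IgA than with IgG, 2 became 0 with library totals and 0 to 4 with 1 library left out, and lower, 0 became 2 and 0 to 1. Higher with IgA than in untreated cells, 2 became 0 with library totals, 4 with the replicate block and 0 to 4 with 1 library left out, and lower, 1 became 0 without the low-count filter, 0 with only the 6 libraries compared and 0 to 1. IgG against untreated cells stayed at 0 in all alternatives. With BDNF IgA against untreated cells, 5 lower became 10 without the filter and 3 to 21 with 1 library left out. Higher with TSPAN7 IgA than in untreated cells, 2 became 4 without the filter, 6 with only the 6 libraries compared and 0 to 2, and lower, 0 became 1 with the 6 libraries. With TSPAN7 IgA against BDNF IgA, 17 became 7 with the 6 libraries and 2 to 33 with 1 library left out. It was 19 by DESeq2 (CDC6 not among them), 25 without the filter and 22 with the replicate block. With library totals alone it was 14, where 494 of all genes were called higher, and ORC1, GINS1 and CCNE2 lost their calls. The calls over all genes moved as well in this last comparison, from 641 higher to 427 with the 6 libraries and 196 to 1554 with 1 library left out. For the fits with fewer libraries, fewer degrees of freedom are part of the construction, and other causes were not tested. Over all genes tested, deviations of same-numbered libraries correlated over 0.1 in 1 of 9 pairs in the first experiment (-0.07 to 0.25) and 0 of 9 in the second (-0.02 to 0.09), so the numbers were not taken to pair them, although replicate 3 had the lowest mean member level of each group in the first experiment. The sign changed for POLE, IgA against IgG, with library totals (-0.21) and without IgA replicate 3 (-0.28, with 0.20 the highest value without 1 library), for RRM2, IgA against IgG, with library totals (-0.0011), and for GINS1, BDNF IgA against untreated cells, without BDNF IgA replicate 3 (0.038, with -0.25 the lowest value without 1 library). A median SE of 0.14 in the first experiment and 0.07 in the second limits what could be detected.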

Other observations

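Genes of mitosis, which follow S phase in the cycle, were described from a further list of 20, all tested. BDNF IgA against untreated cells gave 8 called lower and 0 higher (median log2 fold change -0.15), TSPAN7 IgA against untreated cells 3 lower and 0 higher, and TSPAN7 IgA against BDNF IgA 7 higher and 0 lower. Of all genes, 3.18%, 4.08% and 3.42% were called in those respective directions. AURKA, a spindle kinase, fell to 3474 ± 308 against 4436 ± 138 normalised counts (SD, n = 3) with BDNF IgA against untreated cells (log2 fold change -0.35 ± 0.05 SE, adjusted p = 0.000300 by edgeR), a call kept in all 13 alternative fits. CENPE, a kinetochore motor, was lower than in untreated cells with either specific antibody, at -0.33 with BDNF IgA (edgeR adjusted p = 0.000422) and -0.24 with TSPAN7 IgA (edgeR adjusted p = 0.00603). CDC20, an activator of the anaphase-promoting complex, was higher with TSPAN7 IgA than with BDNF IgA (4031 ± 31.8 against 3278 ± 349; log2 fold change 0.30 ± 0.06 SE, adjusted p = 0.00284 by edgeR) in all 13 fits as well. Without BDNF IgA replicate 2 the numbers were 17 lower with BDNF IgA and 14 higher with TSPAN7 IgA than with BDNF IgA, and without BDNF IgA replicate 3 they were 2 and 2. The number lower with BDNF IgA was 3 without untreated replicate 1. The number higher with TSPAN7 IgA was 2 without TSPAN7 IgA replicate 2 and 3 without BDNF IgA replicate 1 or TSPAN7 IgA replicate 3. The number lower with TSPAN7 IgA was 1 or 2 with any library left out.

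In the first experiment 1 of 20 mitosis genes was called higher (5%) and 3 lower (15%) with IgA than with IgG, below and near the 12.6% and 11.6% of all genes. KIF11, a spindle motor, fell to 3354 ± 374 against 5109 ± 168 normalised counts (log2 fold change -0.61 ± 0.10 SE, adjusted p = 0.00126 by edgeR), and this call was kept in all 13 fits. UBE2C, an enzyme that acts with the anaphase-promoting complex, was higher (0.44, edgeR adjusted p = 0.0290). The number higher was 0 without IgA replicate 1 or any IgG library, and the number lower was 1 when IgA replicate 1, IgG replicate 1 or IgG replicate 2 was omitted.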
